A study of Mus musculus with 6 samples.

Results

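The genes described here encode the phagocyte NADPH oxidase and the enzymes that remove the oxidants it makes. They are *Cybb*, *Cyba*, *Ncf1*, *Ncf4* and *Rac2* on the oxidase side and *Sod1*, *Sod2*, *Cat* and *Gpx1* on the antioxidant side, 9 genes chosen by name from the 19449 genes of the single-cell table and the 55351 genes of the bulk table. All 9 were found in both tables. The phagocyte oxidase is a membrane complex that passes electrons from NADPH to oxygen and so makes superoxide, and it works once its cytosolic subunits and the GTPase Rac have joined the membrane subunits. Superoxide dismutases turn superoxide into hydrogen peroxide, and catalase and glutathione peroxidase break hydrogen peroxide down. In the inflamed spinal cord the complex is best known from neutrophils, macrophages and microglia.

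Single cells came from C57BL/6 mice with experimental autoimmune encephalomyelitis (EAE, an autoimmune inflammation of the spinal cord), induced by transferring Th17-polarised CD4+ T cells that react with a myelin peptide. CD45+ cells were sorted from the spinal cords of young recipients (8 to 12 weeks) or middle-aged recipients (40 to 44 weeks) on day 6 or day 10 after transfer. The 4 libraries (Young-d6, Middle-aged-d6, Young-d10 and Middle-aged-d10) each held cells of 4 pooled cords, so there was 1 library per age and day and all recipients carried the transferred cells. Microglia of untreated mice, gated as CD45int CD11b+ cells, gave 1 bulk library per age (Young-naive and Middle-aged-naive).

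The single-cell libraries held 8315 to 10026 cells and 57337626 to 69859331 unique molecular identifiers (UMIs, tags that count each captured transcript once), and the bulk libraries 79373420 and 76293436 read counts. Between 13 and 36 cell barcodes were shared by any pair of libraries. Cells carried the cluster numbers of the deposited table, which names no cell types. Of 16 clusters, the 13 with 20 or more cells in every library were used, with 37684 of 38057 cells. By marker genes, clusters 0, 3 and 6 were neutrophil-like (cluster 6 rich in granule genes), 1 and 5 monocyte/macrophage-like, 2 T cell-like, 4 B cell-like, 7 dendritic cell-like, 8 and 10 microglia-like and 9 NK-like. Cluster 11 was led by genes of dividing and basophil-lineage cells and cluster 13 by genes of both T cells and neutrophils, and they were left unnamed. Levels are given as CPM, the UMIs of a gene per 1000000 UMIs of the same cluster and library. Orders of clusters are among the 13 used. Left-out cluster 12 (4 to 131 cells per library) had medians above all of them for *Cybb* (1220.5 CPM), *Ncf4* (489) and *Gpx1* (1245).

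All 9 are protein-coding genes, placed here on the GRCm38 mouse genome, and *Ncf4* and *Rac2* share a chromosome. On the oxidase side, *Cybb* is at chrX:9435252-9487771 on the minus strand, *Cyba* at chr8:122424776-122432930 (minus), *Ncf1* at chr5:134220053-134229625 (minus), *Ncf4* at chr15:78244801-78262580 (plus) and *Rac2* at chr15:78559167-78572783 (minus). On the antioxidant side, *Sod1* is at chr16:90220754-90226329 (plus), *Sod2* at chr17:13006846-13040063 (plus), *Cat* at chr2:103453849-103485160 (minus) and *Gpx1* at chr9:108338903-108340343 (plus). The RefSeq promoter table for GRCm38.p6 matched 7 of the 9. The 250 bases before the RefSeq start are shown for *Cybb* and *Ncf1*, a membrane and a cytosolic subunit, and for *Sod2* and *Gpx1*, which moved in opposite directions between the days in neutrophil-like cells. RefSeq's starts differ from the outer limits of the genes given above, so the *Cybb* and *Sod2* stretches lie within those limits and the *Gpx1* stretch overlaps them. They are written 5′ to 3′ on the strand of the gene, and capitals mark GGGCGG (the GC box) or CCAAT (the CCAAT box) on either strand.
Cybb, chrX:9469325-9469574, minus: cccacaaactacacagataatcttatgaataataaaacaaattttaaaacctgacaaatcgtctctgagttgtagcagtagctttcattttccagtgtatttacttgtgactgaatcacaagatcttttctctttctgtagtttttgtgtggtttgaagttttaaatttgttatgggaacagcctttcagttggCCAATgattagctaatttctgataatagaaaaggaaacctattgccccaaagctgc
Ncf1, chr5:134229626-134229875, minus: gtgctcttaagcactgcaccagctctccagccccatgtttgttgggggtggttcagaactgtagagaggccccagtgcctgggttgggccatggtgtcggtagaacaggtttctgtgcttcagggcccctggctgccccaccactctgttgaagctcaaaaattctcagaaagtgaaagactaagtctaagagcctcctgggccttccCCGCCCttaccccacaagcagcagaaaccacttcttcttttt
Sod2, chr17:13007589-13007838, plus: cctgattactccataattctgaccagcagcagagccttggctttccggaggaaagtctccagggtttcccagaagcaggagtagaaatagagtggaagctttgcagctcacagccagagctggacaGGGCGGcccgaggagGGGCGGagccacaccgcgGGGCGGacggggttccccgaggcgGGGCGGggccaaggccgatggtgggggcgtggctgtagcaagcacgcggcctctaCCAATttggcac
Gpx1, chr9:108338830-108339079, plus: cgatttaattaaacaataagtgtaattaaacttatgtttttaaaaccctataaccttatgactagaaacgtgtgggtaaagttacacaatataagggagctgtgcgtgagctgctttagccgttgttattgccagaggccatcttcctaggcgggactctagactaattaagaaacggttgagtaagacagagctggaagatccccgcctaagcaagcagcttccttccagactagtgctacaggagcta

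The *Sod2* stretch was 63.6% G or C and held GGGCGG 4 times and CCAAT once. The *Cybb* stretch was 34% G or C and held CCAAT once and no GGGCGG. The *Ncf1* stretch (54.4% G or C) held GGGCGG once, on the other strand, and the *Gpx1* stretch (42%) held neither. Over 32851 promoters of the same length, 32.7% held GGGCGG and 33.8% held CCAAT, and the median G or C content was 52.4%. GAGGAA (a core of sites for the factor PU.1), TGACNNNGC (the antioxidant response element) and TATAAA were searched as well, on both strands, and stood in 23.3%, 10.2% and 12.4% of all promoters. Among these 4 stretches the only match was 1 GAGGAA in *Sod2*, and no match overlapped that of another motif. A match is a string of letters and was not tested as a site.

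**Figure D1:**
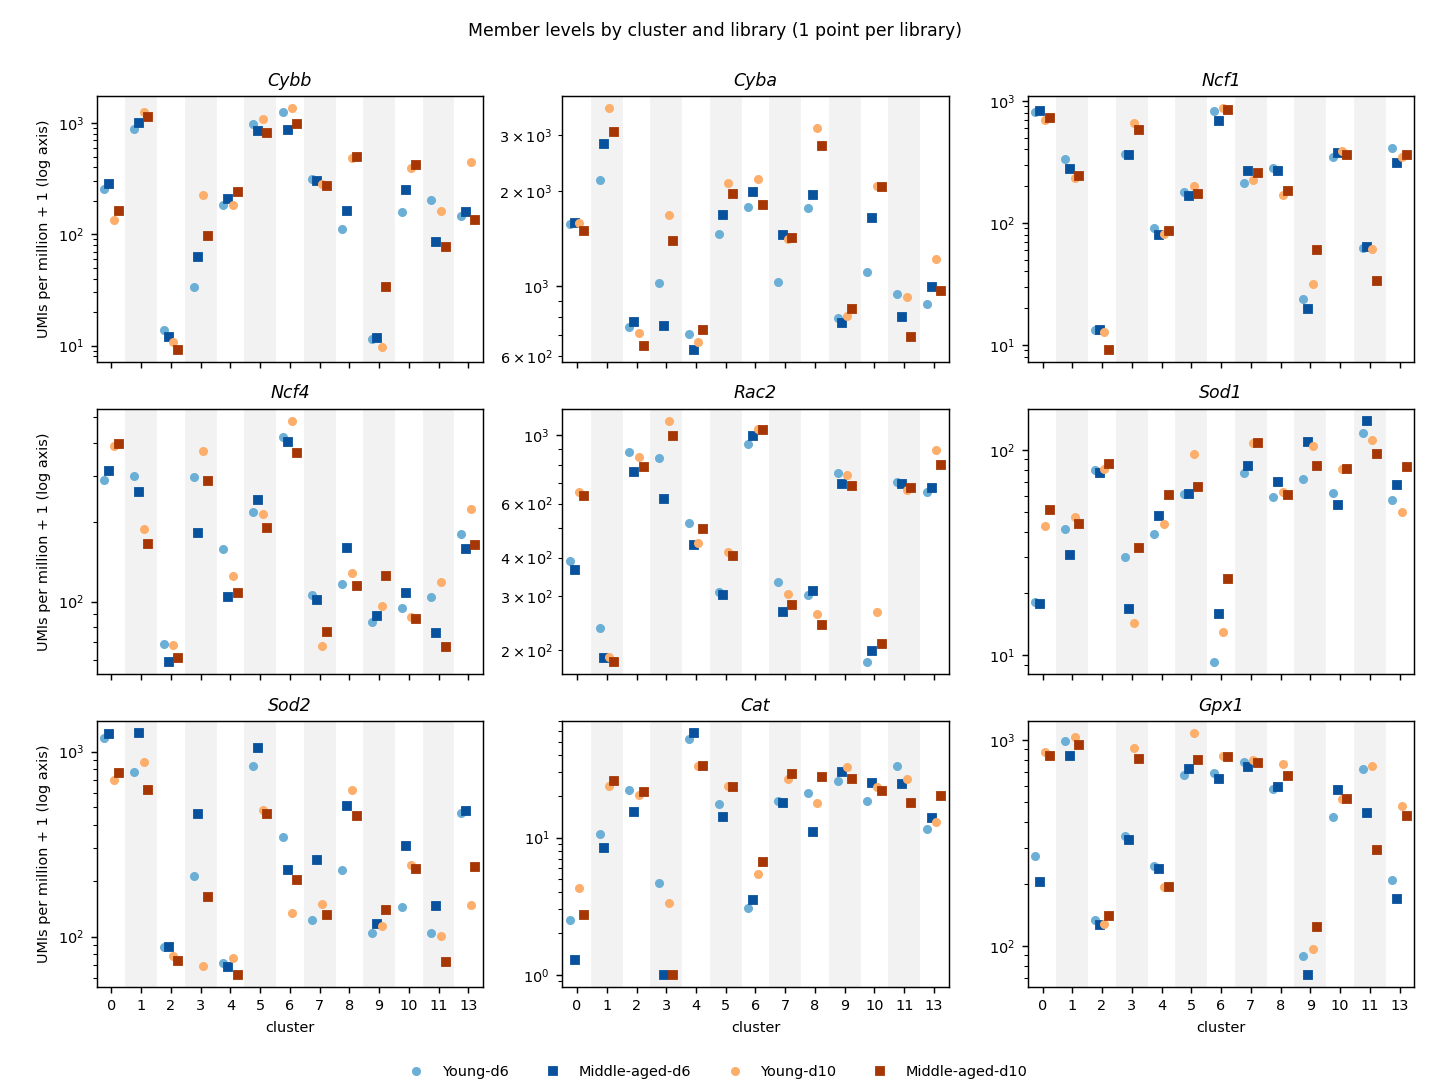
Level of each gene (vertical log axis, CPM plus 1) in the 13 clusters used (horizontal axis), with 1 point per library and no error bars since each age and day has 1 library. *Cybb* and *Ncf1* have their lowest medians in T cell-like cluster 2 and NK-like cluster 9, and *Sod1* and *Cat* theirs in neutrophil-like clusters 0, 3 and 6.

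*Cybb* encodes the large catalytic subunit of the oxidase, which binds NADPH and carries the electrons. Among the clusters used it stood highest in granule-rich neutrophil-like cluster 6 and in monocyte/macrophage-like clusters 1 and 5. Their levels overlapped over the libraries, with medians of 1119, 1076 and 910.2 CPM. In cluster 1 it was at 879.5 CPM in Young-d6, 1007 in Middle-aged-d6, 1256 in Young-d10 and 1144 in Middle-aged-d10. In the neutrophil-like cluster 0 it was at 257, 284, 134 and 162 CPM, in the same order of libraries. T cell-like cluster 2 had 8.15 to 12.8 CPM.

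Since a deeper cell is more likely to hold a UMI of a gene, the share of cells with a *Cybb* UMI was compared after thinning to 1000 UMIs per cell. Thinning evens out depth and does not remove UMIs from free RNA, which were not measured. After this thinning 54.7% to 65.3% of cluster 1 cells had one, against 0.815% to 1.23% of T cell-like cells. Without thinning the shares were 95.2% to 98.0% and 3.69% to 5.77%, at median depths of 8311 to 10094.5 and 4715 to 6225 UMIs. Cluster 1 alone held a median of 65.3% of all *Cybb* UMIs over the 4 libraries (59.1% to 74.4%), with 22.0% to 28.7% of the cells.

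*Cyba* encodes the small membrane partner that stabilises the catalytic subunit. In all cells together it was at 1550.5, 2002, 2183 and 1920.4 CPM in Young-d6, Middle-aged-d6, Young-d10 and Middle-aged-d10. Its range over cell types was narrow beside that of *Cybb*, from a median of 685 CPM in B cell-like cluster 4 to 2944 in cluster 1. T cell-like cluster 2 had 645 to 772 CPM, where *Cybb* had at most 12.8.

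The cytosolic subunits were ordered otherwise. *Ncf1*, the organiser that links the cytosolic subunits to the membrane, was highest in neutrophil-like clusters 6 and 0, with medians of 832 and 765 CPM. In cluster 0 it was at 806, 825, 699.6 and 724 CPM (Young-d6, Middle-aged-d6, Young-d10, Middle-aged-d10), and the next cluster in the order did not overlap these values. Microglia-like clusters 10 and 8 had medians of 367 and 224 CPM and T cell-like cluster 2 had 12. At 1000 UMIs per cell, 42.8% to 50.6% of cluster 0 cells and 0.530% to 1.77% of T cell-like cells had an *Ncf1* UMI.

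*Ncf4*, a cytosolic subunit that binds a phospholipid of the phagosome, followed a like order, from a median of 411 CPM in cluster 6 and 350.0 in cluster 0 to 63.6 in cluster 2. *Rac2* encodes the GTPase of blood cells that completes the complex, and it serves other pathways too. It was high in cluster 6 (median 1016 CPM), cluster 3 (919) and T cell-like cluster 2 (817), and lowest in cluster 1 (188), where *Cybb* was among its highest.

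Among the antioxidant genes, *Sod2*, the mitochondrial superoxide dismutase, was highest in cluster 0, cluster 1 and cluster 5, with medians of 974, 823 and 657 CPM and overlapping ranges. It was at 61.1 to 75.2 CPM in B cell-like cluster 4. *Gpx1*, a glutathione peroxidase of the cytosol and mitochondria, had its highest median in cluster 1 (982, 830.5, 1029 and 939 CPM in Young-d6, Middle-aged-d6, Young-d10 and Middle-aged-d10). The ranges of clusters 0, 3, 5 and 6 overlapped that of cluster 1, and in Young-d10 cluster 5 was above it, at 1072 CPM. NK-like cluster 9 had the lowest median, 91.9 CPM.

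*Sod1*, the cytosolic superoxide dismutase, and *Cat*, catalase of the peroxisome, went the other way. *Sod1* had its highest median in unnamed cluster 11 (115 CPM) and its lowest in neutrophil-like cluster 6 (13.4), where only 80 UMIs were counted in all. *Cat* was highest in B cell-like cluster 4, at 51.5 and 56.3 CPM on day 6 and 32.1 and 32.3 on day 10. In neutrophil-like clusters 0 and 3 its medians were 1.62 and 1.16 CPM, from 35 and 7 UMIs.

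The likeness of patterns was described by Pearson's r over 52 points (13 clusters in 4 libraries) of log2(CPM + 10), among 9439 genes with 1000 or more UMIs. Points of 1 library share its depth, and points of 1 cluster share a cell type, so no test was made. *Cybb* and *Gpx1* were both most like *Lyz2*, the lysozyme of myeloid cells (r = 0.83 and 0.86). The genes most like *Ncf1* were *Ogfrl1* (0.94), *Skap2* (0.93) and *Spi1* (0.92), the last of which encodes PU.1. For *Cyba* it was *Arl11* (0.86), for *Ncf4* *Pilrb2* (0.90), for *Rac2* *Tmem71* (0.92) and for *Sod2* *Cstb* (0.93), an inhibitor of cysteine proteases. *Sod1* was most like *Eif2s3x* (0.90) and *Cat* like *mt-Nd5* (0.92), *mt-Nd4* (0.91) and *mt-Atp8* (0.91), which are mitochondrial transcripts. Between members, *Cybb* and *Gpx1* had r = 0.79, *Ncf1* and *Ncf4* 0.77, and *Ncf4* and *Sod1* -0.79.

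The first comparison asked whether the members differed between middle-aged and young recipients. In naive microglia they did not differ by 1.5-fold. *Cyba* was at 205 CPM in Young-naive and 202 in Middle-aged-naive, *Ncf1* at 488 and 494, *Cybb* at 55.8 and 55.9 and *Rac2* at 98.9 and 98.0. *Ncf4* was at 55.5 and 60.7 CPM and *Gpx1* at 168 and 184, the largest ratios of the 9, with a log2 ratio (middle-aged to young) of 0.13 for both (95% intervals 0.07 to 0.19 and 0.10 to 0.17). *Cat* was at 63.2 and 59.1 CPM, a log2 ratio of -0.10 (-0.15 to -0.04).

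*Sod1* (57.4 and 56.6 CPM) and *Sod2* (34.9 and 34.1) had intervals that held 0. Of the 14821 genes with 100 or more counts, 4.82% were 1.5-fold higher and 9.59% 1.5-fold lower in middle-aged microglia, against 0 of the 9 members in either direction. All intervals cover counting error alone, and with 1 library per age there was no test. In bulk samples, fewer cells of a type and less RNA per cell cannot be told apart.

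Per kilobase of annotated exon, *Cyba* led in naive microglia with 198 CPM per kb in young and 194 in middle-aged mice. *Ncf1* (133 and 135) and *Gpx1* (117 and 128) came next. *Sod2*, whose annotated exons are the longest of the 9, was lowest with 3.49 and 3.40. The divisor joined every annotated exon of a gene, which can be longer than the transcripts present, so the order rests on the annotation. Without the division *Ncf1* led, with 488 and 494 CPM, ahead of *Cyba* with 205 and 202.

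Against the microglial label, 10 marker genes of microglia summed to 25616 and 24146 CPM, with none at 0. Endothelial markers went with age, at 868 CPM in young and 185 in middle-aged microglia, with 9 of 9 genes at least 1.5-fold lower and none at 0. Basophil and mast cell markers summed to 14.3 and 3.72 CPM, and 1 of 6 had enough counts. The part of both lists in the ratios of the members, and of the genes named next, was not tested. Of 11 other oxidase genes with enough counts none differed by 1.5-fold, and the largest ratios were those of *Noxo1* (log2 -0.26) and *Rap1a* (-0.21). Of 11 other superoxide and peroxide enzymes 3 were lower, namely *Sod3* (3.57 and 0.682 CPM), *Gpx3* (2.73 and 0.931) and *Gpx8*, the last named after its values were seen. *Mgst1* and *Gstm1*, which act on glutathione, were 2.45-fold and 1.51-fold lower, the only 2 of 17 glutathione and thioredoxin genes past the fold. Of the list called NRF2 targets here, 8 genes had enough counts. It holds targets of the oxidant-response factor NRF2, the NRF2 gene *Nfe2l2* itself, and *Keap1*. On this list the heme oxygenase gene *Hmox1* was 1.74-fold higher, from 76.5 to 133 CPM, and *Me1* 2.49-fold lower. Of the oxidant enzymes, *Mpo* (log2 -0.55) and *Xdh* (0.14) had enough counts and were within 1.5-fold.

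**Figure D2:**
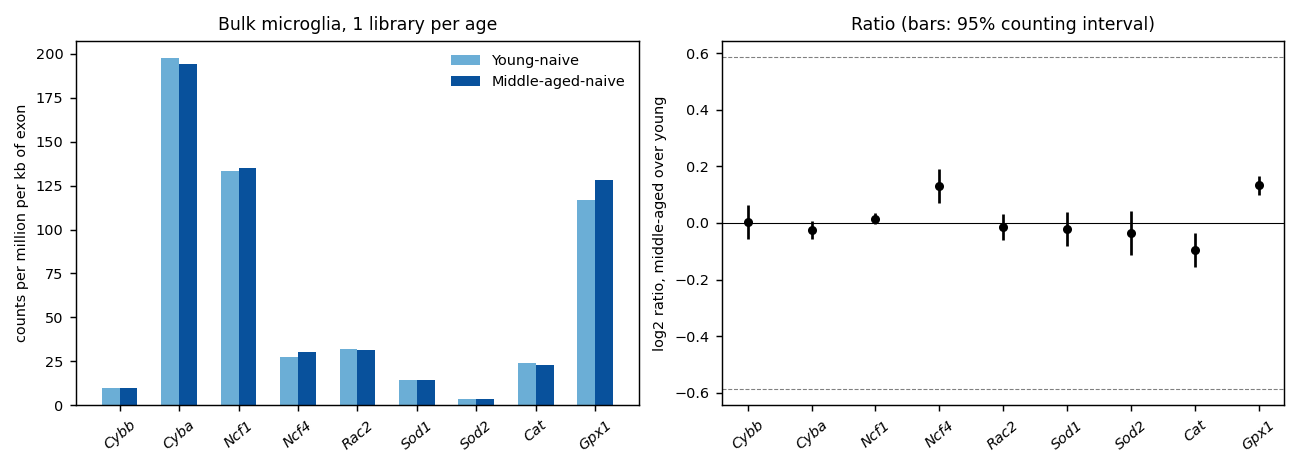
Bulk microglia of naive mice. The left panel shows CPM per kilobase of exon for the 9 genes (bars, 1 library per age), and the right panel the log2 ratio between the ages, positive where middle-aged is higher, with its 95% counting interval, with dashed lines at 1.5-fold. All 9 ratios lie between -0.10 and 0.13.

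In EAE the fit over both days asked for an age difference in each cluster. The members' UMIs were summed by cluster and library and tested with edgeR's quasi-likelihood test on age, with day in the model, over all genes of the cluster. Of 115 pairs of a member and a cluster, 0 were called at an adjusted p of 0.05, against 0.333% of 112145 pairs over all genes (0.213% higher and 0.119% lower in middle-aged mice). DESeq2 also called 0. At an unadjusted p of 0.05 edgeR had 9 of the 115 pairs (7.83%, against 6.03% over all genes) and DESeq2 3. The test rests on 4 libraries and 1 residual degree of freedom per gene, which edgeR moderates across genes. With 1 library per age and day, this residual is how far the age difference varied between the days. It holds no spread between replicate libraries, and the fit cannot show an age difference that changed with the day.

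The lowest adjusted p of a member was that of *Sod2* in neutrophil-like cluster 3. It was at 210.2 CPM in Young-d6 and 461 in Middle-aged-d6, and at 68.1 in Young-d10 and 162 in Middle-aged-d10. Both middle-aged libraries thus lay above the young library of the same day. The fitted log2 difference was 1.23 (SE 0.26, edgeR adjusted p = 0.057).

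Next came *Cybb* in the unnamed clusters. In cluster 11 it was at 202 and 84.2 CPM on day 6 and 162 and 76 on day 10, the young library first in each pair, a fitted log2 difference of -1.09 (SE 0.18, edgeR adjusted p = 0.083). With library totals alone as scaling it passed, at -1.17. The 10 cells with the most *Cybb* UMIs held 67.9% of them in Young-d6, 96.3% in Middle-aged-d6, 31.6% in Young-d10 and 69.6% in Middle-aged-d10. The markers of monocytes and macrophages in cluster 11 summed to 6886 and 3791 CPM on day 6 and 6601 and 3393 on day 10, with 0 of 12 at 0, and those of neutrophils to 1668 and 912 and then 4288 and 422. Their part in the result was not tested. *Gpx1* in cluster 11 was at 723 and 442 CPM on day 6 and 742 and 289.6 on day 10, with a fitted log2 difference of -0.96 (SE 0.21, edgeR adjusted p = 0.14). In cluster 13 *Cybb* was at 144, 157, 450.2 and 134 CPM in Young-d6, Middle-aged-d6, Young-d10 and Middle-aged-d10, so that 1 library stood above the rest. The top 10 cells there held 92.7%, 72.6%, 69.0% and 88.4% of its UMIs, in the same order of libraries.

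The ages were also compared within a day, as ratios of 1 library to another, without a test. On day 6, 102 pairs had 100 or more UMIs in both libraries together. Past 1.5-fold, 7 of them (6.86%) were higher in middle-aged mice and 5 (4.90%) were lower, against 4.81% and 7.53% of all gene and cluster pairs. On day 10 it was 5 (4.67%) and 7 (6.54%) of 107 pairs, against 3.39% and 3.15%. With TMM scaling, which sets the bulk of genes equal, the counts were 9 higher and 2 lower on day 6, and 3 and 9 on day 10. The shares of all pairs under TMM are not given here. The ratios of day 6 and day 10 share no library.

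*Sod2* made up 5 of the 7 higher pairs on day 6. In cluster 1 it was at 771 CPM in Young-d6 and 1251 in Middle-aged-d6, a log2 ratio of 0.70 (95% interval 0.67 to 0.72). In dendritic cell-like cluster 7 it was at 121 and 257 CPM, a log2 ratio of 1.08 (0.94 to 1.23). In microglia-like clusters 8 and 10 it was at 229 and 507 CPM and at 144 and 308 CPM, log2 ratios of 1.15 (0.89 to 1.41) and 1.10 (0.93 to 1.27). The fifth was cluster 3.

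In T cell-like cluster 2 and B cell-like cluster 4 *Sod2* was nearly level on day 6, at 87.0 and 86.4 CPM and at 70.5 and 67.5 CPM. In neutrophil-like cluster 0 it was high at both ages (1185 and 1241 CPM). In granule-rich cluster 6, with 60 young and 43 middle-aged cells, it was lower in middle-aged mice (344 and 229 CPM). The 10 cells with the most *Sod2* UMIs held 82.6% and 87.0% of them there. On day 10 the young library was the higher of the pair in clusters 1, 7 and 8, with 876 CPM in young and 616 in middle-aged mice in cluster 1, 149 and 129 in cluster 7, and 618 and 445 in cluster 8. Cluster 10 had 242 and 230.0 CPM on that day.

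Neutrophil-like cluster 0, where *Sod2* is high, held 17.6% to 38.7% of the cells of a library, the most in Middle-aged-d6 (3880 of 10026 cells). The summed level of 12 neutrophil markers on day 6 was 4680.1 CPM in young and 3408 in middle-aged cells of cluster 1, 1027 and 1547 in cluster 7, 8179 and 11823 in cluster 8, and 4568 and 1709 in cluster 10, with 0 of the 12 markers at 0 in these clusters. The *Sod2* ratios of clusters 1, 3, 7, 8 and 10 stayed past 1.5-fold under each other scaling. They also did so without cells that held UMIs of another lineage's markers, which included no monocyte, macrophage or dendritic cell markers. Microglial markers were lower in middle-aged cells on day 6, at 5840 and 3829 CPM in cluster 8 (5 of 10 at least 1.5-fold lower) and 8666 and 5713 in cluster 10 (4 of 10). The 8 markers of dividing cells summed to 531 and 865 CPM in cluster 10, with 6 of them higher in middle-aged cells. The part of these markers, and of free RNA from neutrophils, was not tested.

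The other members past 1.5-fold on day 6 were *Cybb* in cluster 10 (158 and 251 CPM, young first) and *Sod1* in NK-like cluster 9 (71.4 and 108 CPM, from 110 UMIs) on the higher side. On the lower side were *Ncf4* in clusters 3 and 4, *Cybb* and *Gpx1* in cluster 11 and *Sod2* in cluster 6. The 2 *Ncf4* ratios came from 277 and 205 UMIs and were within 1.5-fold under TMM scaling. *Cyba*, *Ncf1*, *Rac2* and *Cat* had no pair past the fold on day 6. On day 10, 5 of the 7 lower pairs were in cluster 11 (*Cybb*, *Ncf1*, *Ncf4*, *Cat* and *Gpx1*), and the other two were *Cybb* in clusters 3 (226 CPM in young, 95.5 in middle-aged mice) and 13. The monocyte and macrophage markers of cluster 3 summed to 7621 and 4304 CPM in these libraries and those of cluster 13 to 4848 and 2905, and their part was not tested. In cluster 11 on day 10, 9 of 9 granule-gene markers were 1.5-fold lower in middle-aged mice. So were 6 of 12 monocyte and macrophage markers (1 was higher) and 5 of 6 basophil and mast cell markers, while 3 of 10 T cell markers were higher. The share of all genes of cluster 11 past the fold is not given here, so its 5 pairs cannot be set against it. The higher pairs of members on day 10 were *Sod2* in clusters 3, 6 and 13, *Cat* in cluster 8 (from 109 UMIs) and *Sod1* in cluster 13 (from 109 UMIs).

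**Figure D3:**
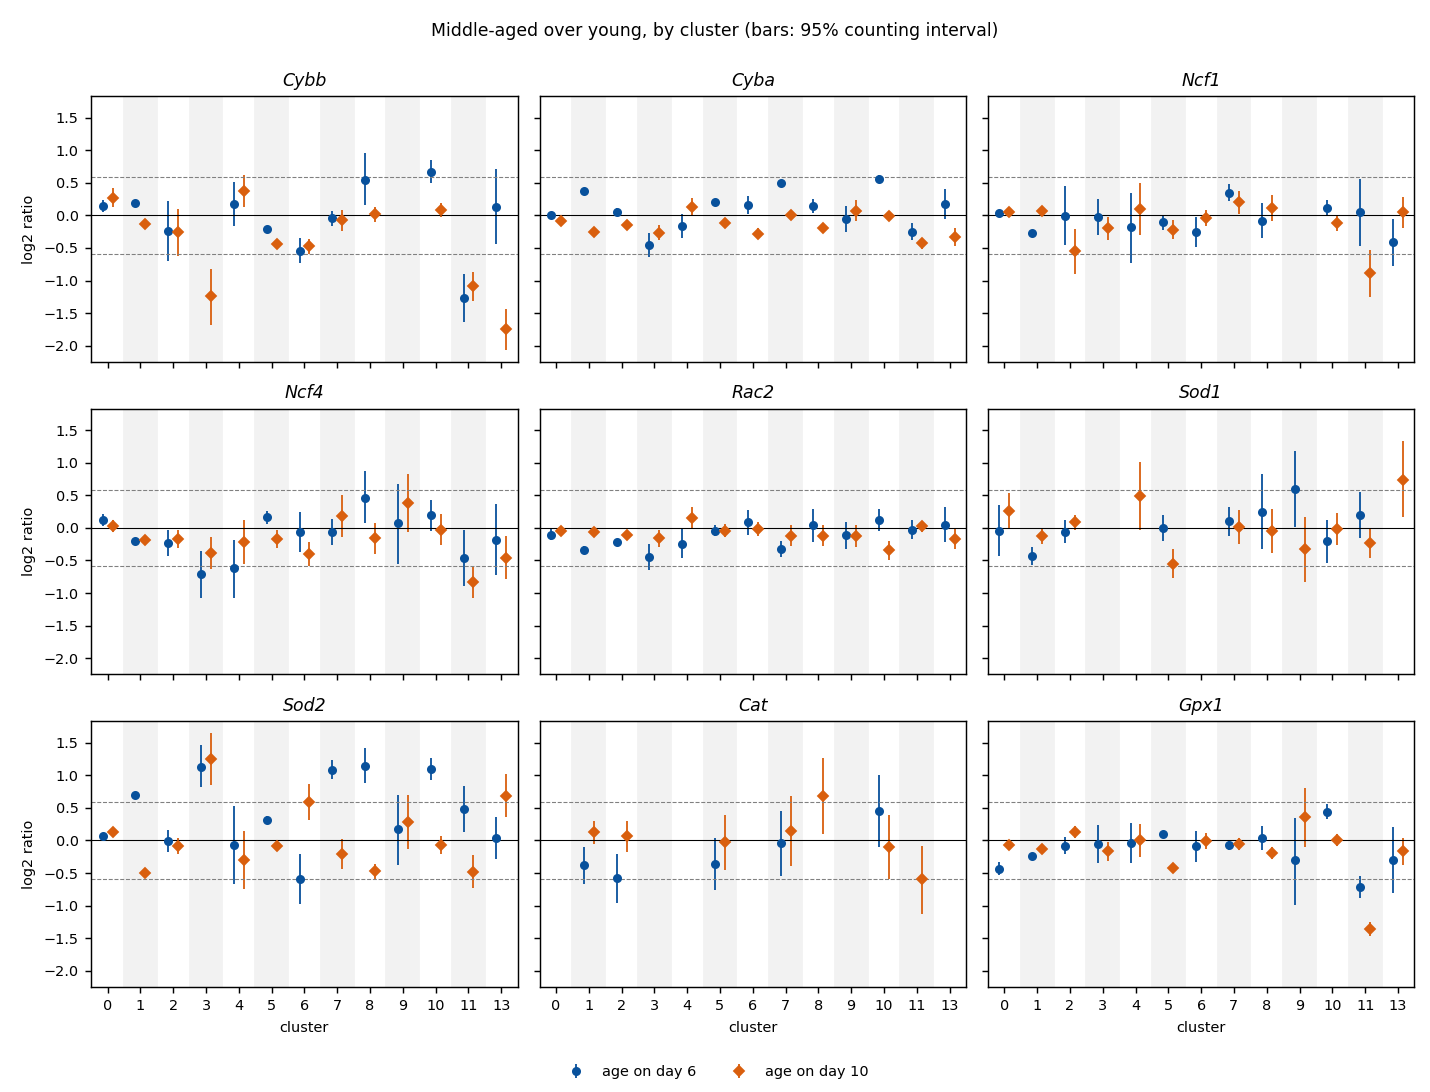
Log2 ratio of CPM between the ages (vertical axis, positive where middle-aged is higher) for each gene in the 13 clusters (horizontal axis), on day 6 (blue circles) and day 10 (orange diamonds), with 95% counting intervals and dashed lines at 1.5-fold. Pairs under 100 UMIs are left out. *Sod2* lies between 0.70 and 1.15 in clusters 1, 3, 7, 8 and 10 on day 6.

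Of the 59 other genes of oxidant metabolism on 5 lists, 4 of 526 tested pairs were called for age. That was 0.760%, against 0.333% of all gene and cluster pairs, and all 4 were higher in middle-aged mice. In neutrophil-like cluster 0 these were *Srxn1*, which reduces overoxidised peroxiredoxin, *Gclm*, a subunit of the enzyme that starts glutathione synthesis, and *Nos2*, the inducible nitric oxide synthase. *Srxn1* was at 17 CPM in Young-d6, 36.8 in Middle-aged-d6, 28.3 in Young-d10 and 53.1 in Middle-aged-d10, a fitted log2 difference of 1.05 (SE 0.17, edgeR adjusted p = 0.030). *Gclm* was at 60.2, 107, 133 and 194 CPM in Young-d6, Middle-aged-d6, Young-d10 and Middle-aged-d10, and *Nos2* at 35.8, 78.4, 57.5 and 83.9. The fourth was *Prdx4* in B cell-like cluster 4 (16.8, 51.4, 22.6 and 34 CPM). By list, the called genes were 2 of 195 pairs among glutathione and thioredoxin genes, 1 of 89 among superoxide and peroxide genes, 1 of 23 among oxidant enzymes, 0 of 129 among other oxidase genes and 0 of 90 among NRF2 targets. DESeq2 called none of these 4 (adjusted p of 0.24 to 1.0), and neither did the edgeR fits on age alone. The fits on age alone without 1 library drop the day and leave 1 library at 1 age, so their calls cannot show dependence on that library. Over all fits the log2 difference was 0.93 to 1.15 for *Srxn1*, 0.55 to 0.97 for *Gclm*, 0.54 to 1.20 for *Nos2* and 0.81 to 1.48 for *Prdx4*.

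The second comparison was between days 10 and 6, over both ages and with age in the model. It called 21 of the 115 pairs (18.3%), 10 higher and 11 lower on day 10, against 15.2% of all gene and cluster pairs (6.78% higher and 8.42% lower). The other oxidant genes were near the same share, with 90 of 526 pairs (17.1%). With library totals alone the members' calls were 15 higher and 7 lower of 22. Under library totals the share over all genes is given for cluster 0 alone, so this count cannot be read as a member trait. The day effect uses the same 4 libraries as the age effect, with 2 per day, and any difference of handling between the days cannot be told apart from the day.

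Cluster 0 held 7 of the 21 calls, and there the scaling decides some of them. Over all its genes the median log2 ratio of CPM, day 10 to day 6, was 0.58 in young and 0.68 in middle-aged mice. TMM scaling takes this shift out and library totals leave it in. With TMM 27.2% of its genes were called higher and 27.2% lower, and with library totals 61.7% and 10.9%.

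*Gpx1* rose on both scales. It was at 273 CPM in Young-d6, 202 in Middle-aged-d6, 870.4 in Young-d10 and 830.5 in Middle-aged-d10, so both day 10 libraries lay above both of day 6. The fitted log2 change was 1.10 (SE 0.13, edgeR adjusted p = 8.43e-06) with TMM and 1.86 with library totals. At 1000 UMIs per cell the share of cluster 0 cells with a *Gpx1* UMI was 17.8% and 15.6% on day 6 and 48.3% and 47.5% on day 10.

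*Sod1* rose too, from 17.2 and 16.7 CPM on day 6 to 41.6 and 49.8 on day 10, a fitted log2 change of 0.68 (SE 0.18, edgeR adjusted p = 0.0051) with TMM and 1.44 with library totals. It was lost with DESeq2 (adjusted p = 0.12) and, in the fit on day alone, without Middle-aged-d10 (0.10).

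*Sod2* and *Cybb* fell on both scales. *Sod2* went from 1185 and 1241 CPM on day 6 to 701 and 763 on day 10 (young first), a fitted log2 change of -1.49 (SE 0.13, edgeR adjusted p = 3.16e-07), or -0.73 with library totals. *Cybb* went from 257 and 284 CPM to 134 and 162, with fitted changes of -1.63 (SE 0.13, edgeR adjusted p = 1.34e-07) and -0.87. The share of thinned cells with a *Cybb* UMI went from 14.0% and 16.9% to 9.42% and 10.2%.

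For the other oxidase genes of cluster 0 the call depended on the scaling. *Cyba* was at 1574, 1584, 1585 and 1489 CPM, and its fitted log2 change was -0.80 with TMM (edgeR adjusted p = 0.00012) and -0.04 with library totals (0.79). *Ncf1* had -0.95 (2.04e-05) and -0.19 (edgeR adjusted p = 0.16). *Ncf4* turned, with -0.38 (edgeR adjusted p = 0.020) and 0.38 (0.010), on CPM of 288, 313, 387 and 395. Its call was also lost without the filter on low counts (edgeR adjusted p = 0.056) and, in the fit on day alone, without Young-d10 (0.34) or Middle-aged-d10 (0.23). *Rac2* was at 390.2, 363, 655 and 635 CPM, a fitted log2 change of 0.02 with TMM that was not called. The 9 granule-gene markers of neutrophils in cluster 0 summed to 2526 and 2154 CPM on day 6 and 5688 and 5788 on day 10, and their part in these changes was not tested.

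Neutrophil-like cluster 3 showed the same pair. *Gpx1* was at 339 and 326 CPM on day 6 and 909 and 809 on day 10, a fitted log2 change of 1.13 (SE 0.26, edgeR adjusted p = 0.012). *Sod2* was at 210.2 and 461 CPM and then 68.1 and 162, a change of -1.81 (SE 0.26, edgeR adjusted p = 0.00088). Both calls were lost in the fit on day alone (adjusted p of 0.061 and 0.079) and in that fit without Young-d6 (0.30 and 0.17) or without Middle-aged-d6 (0.27 and 0.41), where *Sod2* had -1.01. Both genes moved likewise in unnamed cluster 13 (1.25 and -1.33), which holds neutrophil genes. *Cybb* in cluster 3 was at 32.6 and 61.8 CPM on day 6 and 226 and 95.5 on day 10, a fitted log2 change of 1.45 that was not called (edgeR adjusted p = 0.062). In cluster 13 the *Sod2* call was lost without Young-d10 (edgeR adjusted p = 0.077). Other markers moved with the day in these clusters. In cluster 3 the 9 granule-gene markers summed to 2608 and 2625 CPM on day 6 and 12052 and 7095 on day 10, and the 12 monocyte and macrophage markers to 1625 and 1507 and then 7621 and 4304, with 2 of each list at least 1.5-fold higher at both ages. In cluster 13 the granule-gene markers went from 1657 and 984 CPM to 20611 and 8317, with 5 of 9 higher, and 1 of the 9 was at 0 in each cluster. Their part in the changes was not tested. *Sod2* in cluster 6 was called at -0.91 (edgeR adjusted p = 0.047), with 24.9% to 87.0% of its UMIs in the top 10 cells of a library. This call was lost under RLE scaling (0.074), library totals (0.19), no filter (0.10), DESeq2 (0.20) and without other-lineage cells (0.079). It was also lost without Young-d6 (0.34), Middle-aged-d6 (0.14) or Young-d10 (0.48), where the value was -0.59.

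In monocyte/macrophage-like cluster 1, *Cat* rose from 9.65 and 7.39 CPM on day 6 to 22.7 and 24.7 on day 10, a fitted log2 change of 1.32 (SE 0.19, edgeR adjusted p = 0.00020), and kept its call under every alternative run. *Ncf4* in cluster 1 fell from 299 and 259.9 CPM to 187 and 165, a change of -0.83 (SE 0.20, edgeR adjusted p = 0.0066). This call was lost without Young-d10 (0.068) or Middle-aged-d10 (0.11). The other 7 members in cluster 1 were not called, with fitted log2 changes from -0.59 (*Sod2*, edgeR adjusted p = 0.13) and -0.52 (*Ncf1*, 0.065) to 0.27 (*Cyba*, 0.40).

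*Sod2* in cluster 5 was at 831 and 1037 CPM on day 6 and 482 and 457 on day 10, a change of -1.27 (SE 0.16, edgeR adjusted p = 2.59e-05). T cell markers of that cluster went from 420.2 and 570.1 CPM on day 6 to 1231 and 1765 on day 10, with 10 of 10 genes at least 1.5-fold higher at both ages and none at 0. Without cells that held other-lineage UMIs, which left 49 of 409 cells of Young-d10 and 84 of 344 of Middle-aged-d10, the change was -0.45 (edgeR adjusted p = 0.36). *Ncf4* in cluster 5 was called at -0.48 (edgeR adjusted p = 0.048) and lost under library totals (0.37), DESeq2 (0.16), without other-lineage cells (0.84), on day alone (0.064) and without any 1 of the 4 libraries (0.056 without Young-d6, 0.13 without Middle-aged-d6, 0.17 without Young-d10 and 0.29 without Middle-aged-d10).

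Microglia-like cluster 8 had 4 of the calls, all higher on day 10, where 6.50% of its genes were called higher and 6.90% lower, and among them the largest fitted rise of a member. *Cybb* was at 111 CPM in Young-d6 and 161 in Middle-aged-d6, and at 491 in Young-d10 and 497 in Middle-aged-d10. Both day 10 libraries lay far above both of day 6, with a fitted log2 change of 2.14 (SE 0.20, edgeR adjusted p = 2.64e-07). The share of thinned cells with a *Cybb* UMI was 9.28% and 7.85% on day 6 and 31.1% and 28.7% on day 10. *Cyba* rose with it, from 1762 and 1948 CPM to 3173 and 2776, a change of 0.96 (SE 0.14, edgeR adjusted p = 4.61e-05). Both kept their calls under every alternative run, none of which left out cells by monocyte or macrophage markers. The cytosolic subunits were not called. *Ncf1* was at 283 and 267 CPM on day 6 and 167 and 181 on day 10, a fitted log2 change of -0.38 with TMM (edgeR adjusted p = 0.21) that was called as lower with library totals, and *Ncf4* and *Rac2* had fitted changes of 0.08 and -0.01.

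*Gpx1* in cluster 8 was called at 0.57 (edgeR adjusted p = 0.026) and lost with library totals (0.26), DESeq2 (0.47) and without Young-d10 (0.16). *Sod2* was called at 0.87 (edgeR adjusted p = 0.031), although its CPM went from 229 to 618 in young mice and from 507 to 445 in middle-aged mice. That call was lost with library totals (0.25), DESeq2 (0.92) and on day alone (0.11). Without Young-d6 the change was 0.34 (0.12), without Young-d10 0.58 (0.12), and without Middle-aged-d6 1.54. In microglia-like cluster 10 *Cybb* rose from 158 and 251 CPM to 395 and 417, a change of 1.18 (SE 0.25, edgeR adjusted p = 0.014), which was lost without Young-d10 (0.11) or Middle-aged-d10 (0.13).

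Markers of other cells moved with these rises. In cluster 8 the 12 markers of monocytes and macrophages summed to 2471 and 2759 CPM on day 6 and 27053 and 36659 on day 10, and 8 of them were at least 1.5-fold higher at both ages, 1 lower and none at 0. The 10 microglial markers summed to 5840 and 3829 CPM on day 6 and 2551 and 3070 on day 10, with 3 lower at both ages. In cluster 10 the sums were 4940 and 4530 and then 17616 and 21707 CPM for monocytes and macrophages and 8666 and 5713 and then 5797 and 5700 for microglia. The part of a change in the kind of cell within these clusters was not tested.

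**Figure D4:**
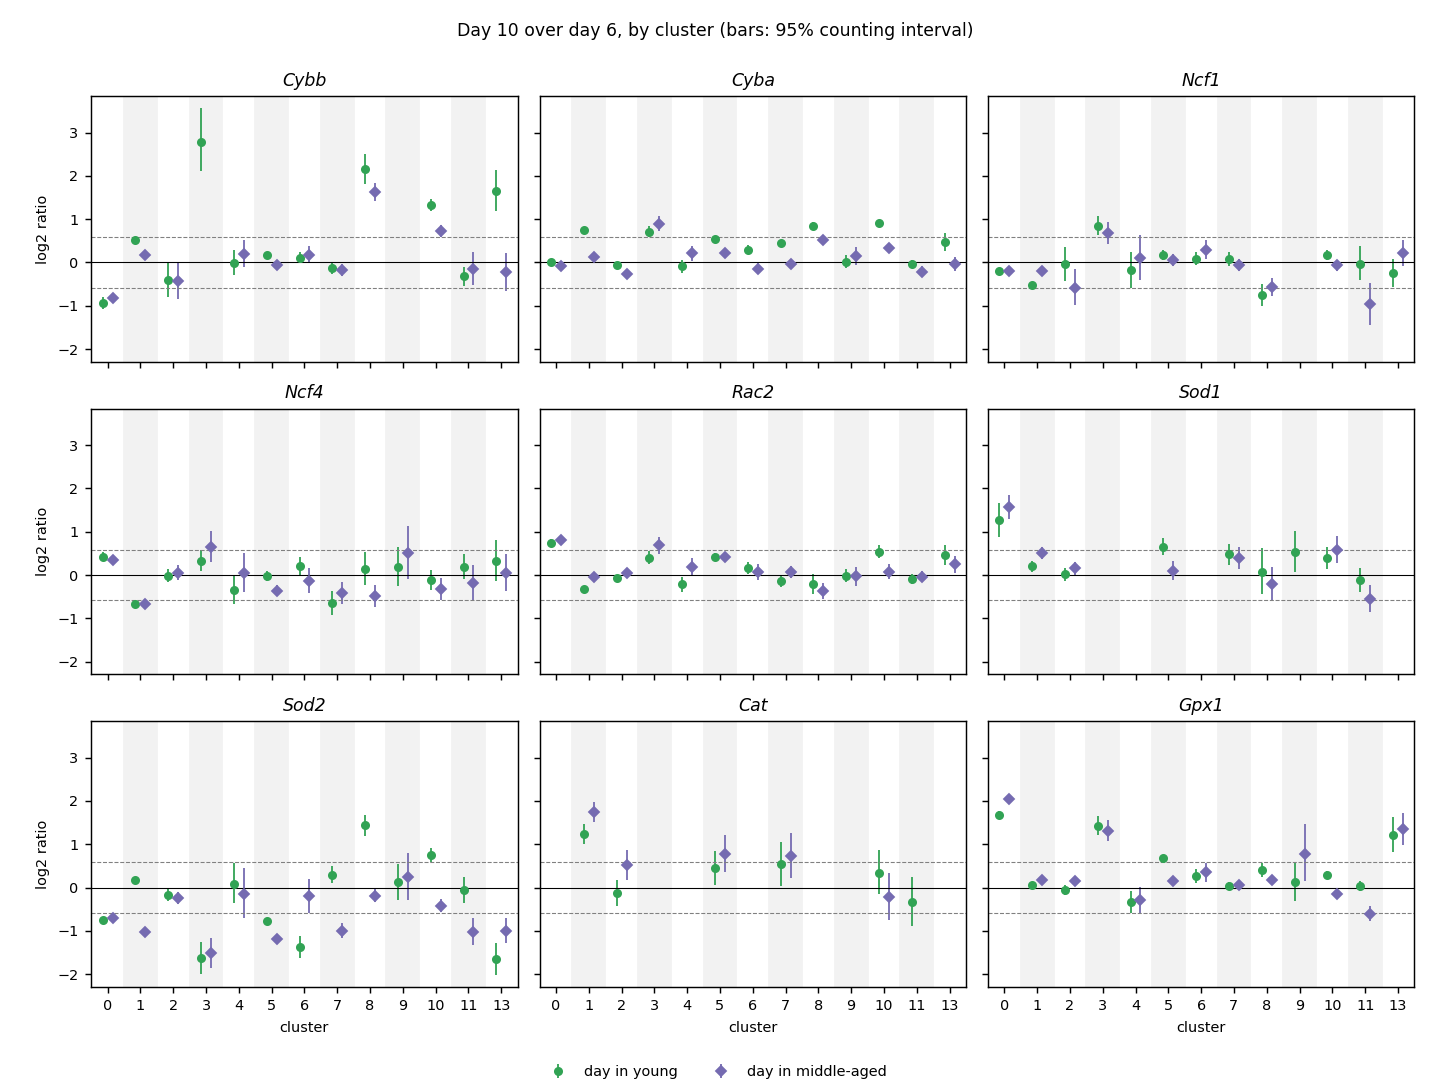
Log2 ratio of day 10 over day 6 CPM (vertical axis) for each gene in the 13 clusters (horizontal axis), in young (green circles) and middle-aged mice (purple diamonds), with 95% counting intervals and dashed lines at 1.5-fold. Pairs under 100 UMIs are left out. *Cybb* is past 1.5-fold in microglia-like clusters 8 and 10 at both ages and below 0 in cluster 0, and its ratio in cluster 3 of young mice, 2.79, rests on 18 UMIs on day 6.

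**Figure D5:**
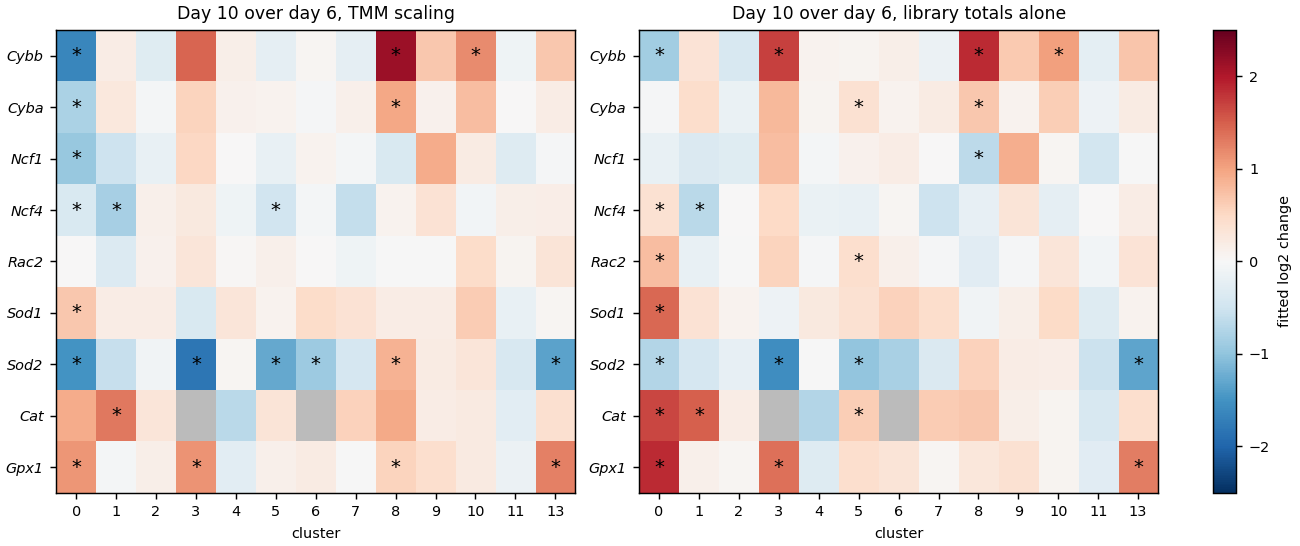
Fitted log2 change from day 6 to day 10 for each gene (rows) and cluster (columns), with TMM scaling (left) and library totals alone (right). Red is higher and blue lower on day 10, an asterisk marks an adjusted p below 0.05 and grey pairs were not tested. In cluster 0 the *Ncf4* square turns from -0.38 to 0.38.

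Taken 1 age at a time and as ratios of libraries, 28 of 104 pairs in young mice were past 1.5-fold, with 19 (18.3%) higher on day 10 and 9 (8.65%) lower, against 15.4% and 15.4% of all gene and cluster pairs. In middle-aged mice it was 16 (15.8%) and 11 (10.9%) of 101 pairs, against 18.0% and 11.9%. With TMM scaling these were 19 and 11 in young and 11 and 13 in middle-aged mice, with no share of all pairs under TMM beside them. *Sod2* was past the fold on the lower side in 5 of 13 clusters in young and 7 of 13 in middle-aged mice, and on the higher side in 2 and 0. *Gpx1* was past it on the higher side in 4 clusters at each age, and on the lower side in cluster 11 of middle-aged mice. These ratios share their libraries with those between the ages.

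Among the other genes of oxidant metabolism, the day calls were spread over lists. Over all gene and cluster pairs 6.78% were called higher and 8.42% lower on day 10. Other oxidase genes had 7 pairs higher and 15 lower of 129, superoxide and peroxide genes 14 and 4 of 89, glutathione and thioredoxin genes 14 and 18 of 195, NRF2 targets 5 and 7 of 90 and oxidant enzymes 0 and 6 of 23. *Glrx*, glutaredoxin, in cluster 0 fell from 209 and 192 CPM to 67.3 and 66.5, and *Prdx1*, a peroxiredoxin, rose from 43.2 and 36.6 to 163 and 211. Their fitted log2 changes were -2.34 and 1.48, and both kept their calls under every alternative run. In cluster 8 *Mgst1*, a microsomal glutathione transferase, rose from 27.6 and 65.3 CPM to 281 and 222. *Hvcn1*, the proton channel that balances the charge moved by the oxidase, was called higher in clusters 1, 2, 5, 7, 8 and 10. Its calls in clusters 7 and 10 held in 5 of 10 alternatives each (highest adjusted p of 0.69 and 0.31), and those in clusters 2 and 5 held in every alternative that gave a value. In cluster 1 it rose from 14.1 and 30.2 CPM to 82.3 and 75.4, a fitted log2 change of 1.75 (SE 0.27, edgeR adjusted p = 0.00034). That call was lost without Young-d10 (edgeR adjusted p = 0.12) or Middle-aged-d10 (0.11). In cluster 8, at 27.6, 43.8, 61.1 and 78.4 CPM in Young-d6, Middle-aged-d6, Young-d10 and Middle-aged-d10, it was lost with DESeq2 (adjusted p = 0.14).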

How the data were processed

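CD45+ spinal cord cells of 4 single-cell libraries (10x Genomics) and microglia of 2 bulk libraries were measured, with groups taken from the GEO labels. The authors deposited UMI counts per gene and cell, made with Cell Ranger 3.1.0 on mm10 and filtered in Seurat, with a cluster number per cell, and bulk read counts per gene, aligned with HISAT2 and counted without strand by featureCounts. Both tables are raw counts. Cell filters, integration and clustering were done by the authors, so cluster membership was set with these genes among the rest. Doublets were not called here, and an alternative left out cells with UMIs of another lineage's markers (2 or more, 5 or more for neutrophil markers). Those markers were of T cells, B cells, NK cells, microglia and neutrophils, with none of monocytes, macrophages or dendritic cells. No cell of clusters 11 and 13 was left out.

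Here, UMIs were summed by cluster and library (20 or more cells in each). Genes with 10 or more UMIs in 2 or more libraries were fitted with edgeR 4.0.16 (quasi-likelihood, TMM, age plus day, Benjamini-Hochberg adjustment within a cluster over all its genes). Ratios of 2 libraries needed 100 counts in both together, with a 95% exact binomial interval that covers counting error only, and 1.5-fold as the limit. Shares of cells were taken after thinning to 1000 UMIs. Alternatives were RLE scaling, library totals, no filter, DESeq2 1.42.0, the tested factor alone, leaving out each library (tested factor alone), TMM or other totals for ratios, and 2-fold. The fits without a library drop the other factor and leave 1 library in a group, so a call lost there cannot be laid to that library. On simulated data with 200 genes changed 4-fold by age, edgeR recovered 99.5% in cluster 0 (9593 genes, 5 false calls) and 98% in cluster 10 (10562 genes, 1 false call). The simulation held no day effect, gave all genes of a cluster a common dispersion and changed only genes with 100 or more counts. The members' fitted log2 age differences were smaller than 4-fold, from -1.32 to 1.24, so this recovery does not carry over to them.

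All 9 members are named, and genes of the other lists by call or by fold. The members and lists were chosen with earlier results of these data known. Single-cell libraries held 57337626 to 69859331 UMIs and bulk libraries 76293436 and 79373420 counts. Labels name no separate cultures or animals as replicates. Python 3.11.15, R 4.3.3 and limma 3.58.1 were used.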

Additional observations from a re-analysis of the deposited data

Results flagged for a closer look

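*Sod2* in granule-rich neutrophil-like cluster 6 had log2 ratios between the ages in opposite directions on the 2 days. It was lower in middle-aged mice on day 6 (344 and 229 CPM, log2 ratio -0.59) and higher on day 10 (133 and 200.1 CPM, log2 ratio 0.59). Each day had 1 library per age, so the difference between the days was not tested. Behind these values were 60 cells in Young-d6, 43 in Middle-aged-d6, 515 in Young-d10 and 83 in Middle-aged-d10. The 10 cells with the most *Sod2* UMIs held 82.6% of them in Young-d6, 87.0% in Middle-aged-d6, 24.9% in Young-d10 and 69.7% in Middle-aged-d10. With TMM scaling both ratios were within 1.5-fold, at -0.40 and 0.42.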

How the results depend on the processing

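No paired analysis was possible because each age and day had 1 library and the labels carry no replicate numbers. No member was called for age with TMM, RLE, DESeq2 or without other-lineage cells, an alternative that left clusters 11 and 13 unchanged. With library totals 1 was (*Cybb* in cluster 11), and without the filter on low counts 3 were (*Sod2* in cluster 3, *Cybb* and *Gpx1* in cluster 11). The fits that left out 1 library dropped the other factor and left 1 library in a group, so their numbers of calls are not given. At 2-fold in place of 1.5-fold, the pairs past the limit were 5 for age on day 6, 5 for age on day 10, 13 for day in young and 10 for day in middle-aged mice. With no minimum count, 19 were past it for age on day 10. No shares of all pairs are given beside these counts, so they cannot be read as traits of the members. With library totals the day change of *Ncf4* in cluster 0 turned to 0.38. In middle-aged mice the day ratio of *Rac2* in cluster 0 turned to -0.024 with TMM, and that of *Gpx1* in cluster 9 to -0.056 without other-lineage cells. In young mice *Sod2* in cluster 5 turned to 0.052 without those cells. The causes were not tested. Library totals as scaling in the fits, and every alternative for ratios between days, were chosen after seeing the data. Calls under the alternatives were counted for called member pairs, the called age pairs of other lists and some of their called day pairs. There 254 values kept direction and call, 73 lost the call and 1 turned, with the fits without a library among them. Low counts limit some pairs, such as *Cat* in clusters 0, 3 and 6 (35, 7 and 26 UMIs in all) and *Cybb* in cluster 9 (45).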
